A study of Mus musculus with 24 samples.

Results

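Dexamethasone (Dex), a synthetic glucocorticoid, was tested against the response to bacterial lipopolysaccharide (LPS) in wild-type mouse embryonic fibroblasts (MEFs), the connective tissue cells that grow out of a digested embryo. The comparison set the 3 libraries of wild-type cells with Dex and LPS against the 3 of wild-type cells with LPS, 6 of the 24 RNA-seq libraries of the series, chosen by their labels alone. Its question is which genes Dex represses, spares or raises while LPS is present. The cells came from male C57BL/6 embryos taken 13.5 days after the vaginal plug, without head and internal organs, and were cultured for 7 days. Wild-type cells carry the label GR wt / wt, where GR is the glucocorticoid receptor. The LPS group had ethanol vehicle for 16 h and LPS for 6 h, at 100 ng/ul as the label gives it, a high dose whose unit could not be checked. In the group with both, 1 uM Dex in ethanol for 16 h took the place of the vehicle. Further groups of 3 libraries each served as background: wild-type cells with vehicle or with Dex alone, and cells of the receptor mutant, labelled GR Zn / Zn, with vehicle, with LPS, or with Dex and LPS. The labels do not say whether libraries of a group stem from different embryos or dishes, so the p-values describe the spread between libraries, which may be technical.

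LPS is bound by the receptor TLR4, which signals through the adaptor Myd88 to NF-kB and AP-1, and through Ticam1 (TRIF) to the interferon regulatory factors. The first branch switches on cytokines and chemokines. The second leads to type I interferon, which acts through the STAT factors and Irf9 on the interferon-stimulated genes. Glucocorticoids bind their receptor in the cytoplasm, and the receptor then raises genes such as Fkbp5 and Tsc22d3 in the nucleus and represses many inflammatory genes.

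The 6 libraries held 18893069 to 57954068 counted reads, and replicate 3 of the group with both agents was the deepest. Libraries 1 and 3 of that group stood apart in the length and GC content of the transcripts that deviated from the group mean: the rank correlation of deviation with transcript length was -0.59 in replicate 1, and that with GC content was -0.68 in replicate 3. Pairs of LPS libraries differed by a chi-square per degree of freedom of 1.96 to 2.49, and pairs with both agents by 21.0 to 62.6. The label of replicate 3 carries a later library number series, which holds no LPS library of wild type, so the value without replicate 3 is the one within a series. Liver marker RNA differed between libraries, with a summed level of 18 genes at 41.0, 41.9 and 3.26 counts per 1000000 reads (CPM) with LPS, and 3.34, 65.5 and 261 CPM with both. Leukocyte markers summed to 82.7 to 84.3 CPM with LPS and 82.2 to 87.7 with both, with Cd3e at 0. Epithelial markers summed to 14.9 to 16.4 and 7.55 to 9.43 CPM, with Krt14 at 0, and Krt18 and Cldn4 among them fell. Fibroblast markers summed to 16852 to 17363 and 15437 to 19591 CPM. In bulk RNA, fewer cells of a type and less RNA per cell cannot be told apart.

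Dex moved genes both ways in about equal number. Of 15221 genes tested, 1607 fell (10.6% of tested genes) and 1591 rose (10.5%) at an adjusted p below 0.05, by edgeR's quasi-likelihood test with Benjamini-Hochberg adjustment, from which all adjusted p-values here are taken. Changes of at least 2-fold were seen in 297 genes that fell and 284 that rose. The median log2 fold change over all genes was 0.01. A gene that was not called was counted as spared if the 95% interval of its fold change lay within 1.5-fold either way, which held for 8226 genes (54%). A spared gene may still have moved by less than that. The other 3797 genes were neither called nor bounded so closely. Without the 5 libraries of the series that stood apart, which leaves 1 library with both agents that is assumed to vary like the other groups, 2200 genes fell and 1944 rose, and without replicate 3 of the group with both, within 1 library series, 2189 fell and 2229 rose. With the 6 compared libraries fitted alone, 723 fell and 821 rose. That fit has fewer libraries, and its spread rests on these groups only, of which the one with both agents varied more. The main fit shares 1 spread per gene over all 24 libraries, which may be too small for that group. What lowered the counts was not tested. In the authors' deposited table of this comparison, which lists 12588 genes, 1617 genes were lower and 1442 higher at an adjusted p below 0.05. Of these, 1452 and 1362 were called in the same direction here.

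The 4 marker genes of the comparison showed both directions. Ifit1, whose product binds viral RNA (ENSMUSG00000034459, GRCm38 chr19:34640871-34650009), stood at 190, 169 and 193 CPM with LPS and at 18.9, 18.2 and 21.2 CPM with Dex and LPS. Vehicle cells held 0.973 ± 0.268 CPM (SD, n = 3). The groups did not overlap, and the fold change was 9.4-fold lower (log2 -3.23 ± 0.17 SE, adjusted p = 7.43e-12). Cxcl10, a chemokine that draws activated T cells (ENSMUSG00000034855, chr5:92346638-92348889), was at 340, 312 and 331 CPM with LPS and at 53.4, 43.3 and 50.2 with both. It fell 6.68-fold (log2 -2.74 ± 0.11, adjusted p = 1.36e-13).

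Il12b, which encodes a subunit of the T cell-polarising cytokine IL-12 (ENSMUSG00000004296, chr11:44400063-44414033), had no read in vehicle or Dex alone. It reached 9.46, 10.8 and 10.4 CPM with LPS and 0.534, 0.761 and 0.691 CPM with both, a fall of 15.2-fold (log2 -3.92 ± 0.16, adjusted p = 1.91e-11). Serpina3n, a secreted inhibitor of serine proteases of the acute phase response (ENSMUSG00000021091, chr12:104406729-104414329), went the other way. Its level was 5.07, 3.5 and 4.62 CPM with LPS and 67.5, 54 and 63.4 CPM with both, a rise of 14.1-fold (log2 3.82 ± 0.15, adjusted p = 4.1e-14). In each of the 4 genes every library with Dex and LPS lay outside the range of the LPS libraries. Over all tested genes, 16.8% had no overlap and were lower, and 15.2% had none and were higher. The 4 genes were chosen with earlier results of these data known, so their separation is a description.

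**Figure D1:**
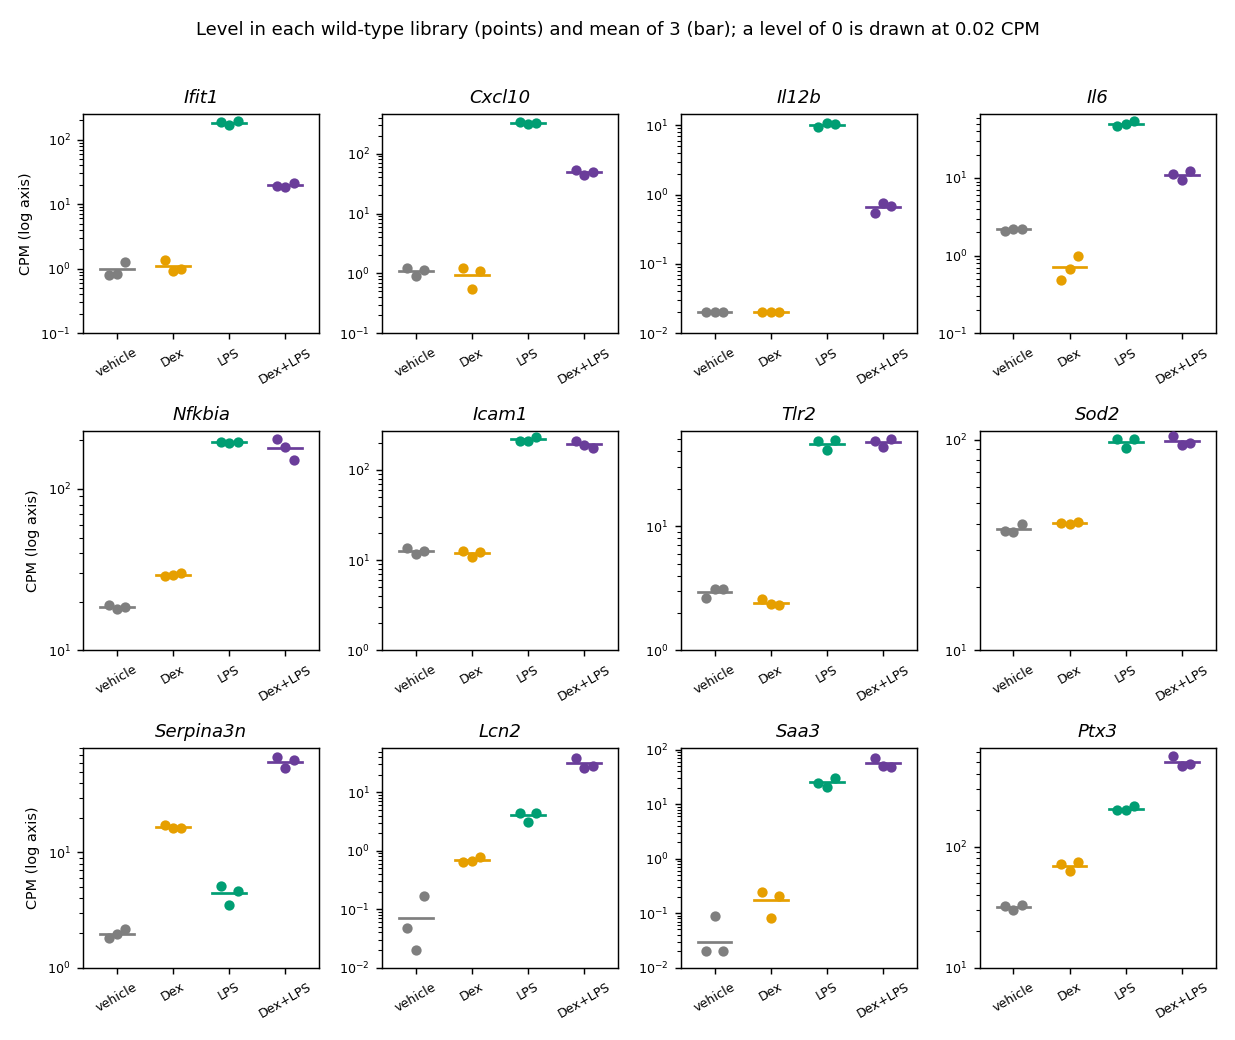
Level of 12 genes in the wild-type libraries, in CPM on log axes, with a point for each library and a bar for the mean of the 3 libraries of a group. The upper row shows genes that were lower with Dex under LPS, the middle row spared genes, and the lower row genes that were higher. Ifit1 drops from a mean of 184 to 19.4 CPM, Tlr2 stays at 46.1 and 47.4 CPM, and Serpina3n goes from 4.4 to 61.6 CPM.

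The start regions of these 4 genes are shown because 3 fell and 1 rose in the same cells. The windows run from 250 bases before to 50 bases after the start and come from RefSeq on GRCm38.p6. Capitals mark matches on either strand to 4 motifs: GAAANNGAA (interferon response element), GGANTTTCC (kappa-B site, bound by NF-kB), TGANTCA (AP-1 site) and ACANNNTGT (glucocorticoid response element). A match describes letters in a window and shows no binding.
Cxcl10, chr5:92348840-92349139, minus strand: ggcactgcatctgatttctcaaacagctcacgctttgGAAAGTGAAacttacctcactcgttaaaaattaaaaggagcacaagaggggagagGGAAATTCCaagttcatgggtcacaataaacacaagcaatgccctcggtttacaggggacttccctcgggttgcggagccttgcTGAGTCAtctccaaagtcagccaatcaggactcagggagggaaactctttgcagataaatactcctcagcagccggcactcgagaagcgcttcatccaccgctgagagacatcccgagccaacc
Ifit1, chr19:34640639-34640938, plus strand: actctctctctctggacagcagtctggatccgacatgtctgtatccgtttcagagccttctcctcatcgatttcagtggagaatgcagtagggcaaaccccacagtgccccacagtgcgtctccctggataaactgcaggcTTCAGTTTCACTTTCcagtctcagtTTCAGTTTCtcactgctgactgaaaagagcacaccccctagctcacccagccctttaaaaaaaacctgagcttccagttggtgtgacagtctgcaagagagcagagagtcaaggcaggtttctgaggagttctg
Il12b, chr11:44399813-44400112, plus strand: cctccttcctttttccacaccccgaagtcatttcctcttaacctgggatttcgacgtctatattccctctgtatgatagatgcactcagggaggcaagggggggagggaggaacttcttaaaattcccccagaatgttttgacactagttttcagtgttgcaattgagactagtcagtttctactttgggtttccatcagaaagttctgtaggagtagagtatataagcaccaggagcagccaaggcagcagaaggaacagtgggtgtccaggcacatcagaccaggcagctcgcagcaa
Serpina3n, chr12:104406458-104406757, plus strand: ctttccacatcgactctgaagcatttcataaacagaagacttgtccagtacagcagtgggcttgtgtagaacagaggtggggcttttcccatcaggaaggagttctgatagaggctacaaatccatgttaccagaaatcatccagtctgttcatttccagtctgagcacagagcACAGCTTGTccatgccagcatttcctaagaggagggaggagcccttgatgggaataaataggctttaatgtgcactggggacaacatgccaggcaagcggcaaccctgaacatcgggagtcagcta

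The Cxcl10 window held 1 match each to the interferon response element, at -213 to -205 from the start, the kappa-B site, at -158 to -150, and the AP-1 site, at -74 to -68. In Ifit1 the interferon motif matched 3 times between -109 and -76, with the first pair of matches overlapping. The Serpina3n window held 1 match to the glucocorticoid response element, at -76 to -68. None of these letters occurred in the Il12b window. Over all 32851 promoter windows, 8.56% held the interferon motif, 1.254% the kappa-B motif, 7.81% the AP-1 motif and 6.85% the glucocorticoid motif.

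To describe what Dex did to the LPS response, LPS-induced genes were taken from the receptor mutant, whose libraries are in neither group compared, though they share in the estimate of the spread. In the mutant, 721 genes (4.74% of tested genes) were called at least 2-fold higher with LPS than with vehicle. In wild type, Dex lowered 400 of them (55.5%), 213 by at least 2-fold. Another 91 (12.6%) were spared, 52 (7.21%) rose, and 178 were neither called nor spared. The median log2 change of the 721 was -0.56, beside 0.01 over all genes. Of the 400 that fell, 395 had no overlap between the 3 and 3 libraries, and of the 52 that rose, 51 had none, where 16.8% and 15.2% of all tested genes had no overlap in those directions. Without the 5 libraries that stood apart the counts were 372, 75 and 55, and without replicate 3 of the group with both 376, 88 and 59. With the 6 libraries fitted alone they were 311, 113 and 43. In all these fits the 721 genes stayed as chosen with all 24 libraries. The 5 that stood apart include a vehicle and an LPS library of the mutant, so the choice of genes was not free of them.

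The share of genes that fell was larger among genes that LPS induced more strongly. Of 371 genes with a mutant log2 induction of 1 to 2, 45.3% fell, and the median log2 change with Dex was -0.35. The share was 61.3% of 212 genes at 2 to 4 (median -0.82), 73.8% of 80 genes at 4 to 6 (median -1.51) and 74.1% of 58 genes above 6 (median -1.55). Spared genes made up 19.1% of the weakest group and 1.72% of the strongest. Of 14019 genes that LPS moved by less than 2-fold or without a call in the mutant, 8.44% fell, 57.5% were spared and 10.3% rose. Of 481 genes that LPS lowered at least 2-fold, 24 fell further and 95 rose.

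**Figure D2:**
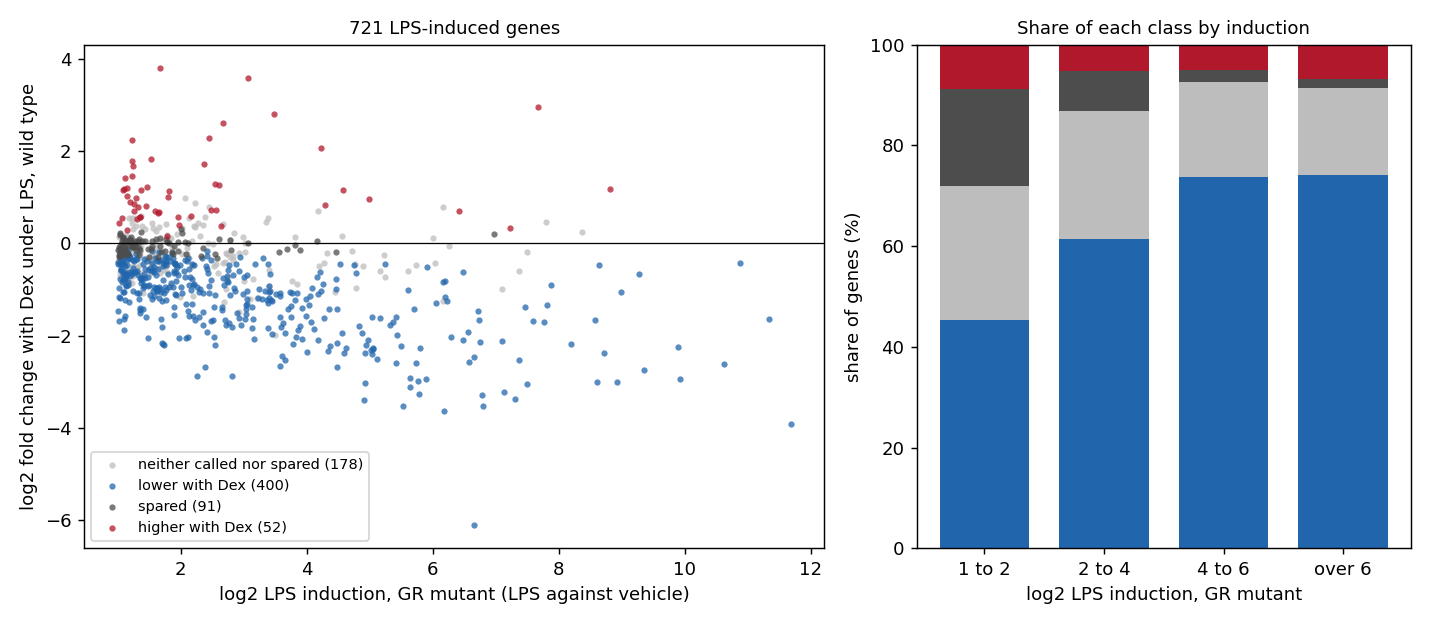
Left, each of the 721 LPS-induced genes by its log2 induction in the GR mutant (x axis) and its log2 change with Dex under LPS in wild type (y axis), coloured by class. Right, the share of each class in percent by induction, in the same colours. The share that was lower with Dex goes from 45.3% in the weakest group to 74.1% in the strongest.

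Most of the LPS-induced genes that fell with Dex were still called above the vehicle level. The retained induction is the part of the LPS rise over vehicle that remained with Dex, computed from group means in wild type. Its median over the LPS-induced genes was 48.8%. Of these 721 genes, defined in the mutant, 525 were also called at least 2-fold higher with LPS in wild type. The median thus includes genes with a smaller or uncalled rise in wild type. Of the 400 genes that fell, 315 retained less than 50% and 178 less than 25%. With Dex and LPS, 294 of the 400 were still called above vehicle, and 45 had a mean at or below that of vehicle. Ifit1 retained 10.1%, Cxcl10 14.7% and Tnf 30.7%. The retained values share the LPS libraries with the Dex comparison and are given as a description.

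Cytokine genes were mostly lower. Of 20 listed inflammatory cytokines 17 were tested, of which 13 fell and 1 rose, with a median log2 change of -1.28. Over all tested genes 10.6% fell and 10.5% rose. The gene lists here and below were written with earlier results of these data known, so their counts are a description. Il6, the fever and acute phase cytokine, was at 47, 49.5 and 53.5 CPM with LPS and at 11.2, 9.54 and 12.3 with both (log2 -2.17 ± 0.10, adjusted p = 2.48e-13). Il1b, the precursor of interleukin 1 beta, went from 36.4, 35.9 and 36.9 CPM to 6.27, 4.93 and 6.34 CPM (log2 -2.62 ± 0.12). In both genes the groups were far apart relative to the spread within them.

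Tnf, the early cytokine tumour necrosis factor, was at 50.4, 50.5 and 55.4 CPM with LPS and at 16.3, 15.9 and 16.2 with both (log2 -1.69 ± 0.09). Csf2, which encodes the growth factor GM-CSF, fell from 4.8, 4.74 and 5.16 CPM to 0.712, 0.403 and 0.656 CPM (log2 -3.01 ± 0.22). Csf1, the macrophage growth factor, fell less, from 1226 ± 14.0 to 950.2 ± 17.6 CPM (log2 -0.37 ± 0.04). The exception was Csf3, the granulocyte growth factor G-CSF. It rose from 4.48, 4.57 and 5.06 CPM to 9.29, 6.99 and 6.7 CPM (log2 0.70 ± 0.17, adjusted p = 0.00384). Il12a, Il23a and Ifnb1 had too few reads to be tested, at no more than 0.137 CPM in any of the 6 libraries.

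Chemokine groups differed in size of change. Among T cell chemokines 8 of 9 tested fell (median log2 -1.34), among monocyte and eosinophil chemokines 8 of 8 (median -0.91), and among neutrophil chemokines 4 of 6 (median -0.59). Cxcl9, a sister of Cxcl10 that binds the same receptor, fell from 22.2, 17.1 and 23.4 CPM to 2.58, 1.93 and 2.96 CPM (log2 -3.01 ± 0.22). Ccl5, another T cell attractant, fell from 38.5, 34.1 and 39.1 CPM to 18.3, 14.9 and 11.5 CPM (log2 -1.34 ± 0.13). The largest of the neutrophil falls was Cxcl3, from 10.9, 11 and 12.1 CPM to 4.09, 3.72 and 4.31 CPM (log2 -1.47 ± 0.10).

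Ccl2, the main monocyte attractant, was at 1464, 1453 and 1468 CPM with LPS and at 1073, 890.8 and 848.7 with both (log2 -0.64 ± 0.08), with 63.3% of the induction retained. Cxcl1, a neutrophil attractant, went from 298, 303 and 321 CPM to 234, 197 and 210 CPM (log2 -0.52 ± 0.07), with 69.4% retained. Cxcl5 (log2 -0.46 ± 0.08) and Ccl7 (log2 -0.46 ± 0.07) had like values. The difference in retention between chemokines was not tested.

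Interferon-stimulated genes fell almost as a block. Of 38 antiviral genes, all tested, 35 fell, 30 of them at least 2-fold, and the median log2 change was -1.76. All 38 were LPS-induced in the mutant, and of all LPS-induced genes 55.5% fell, beside 10.6% of all tested genes. Isg15, a ubiquitin-like modifier, fell from 65.7, 62.4 and 59.7 CPM to 13.5, 10.3 and 9.48 CPM (log2 -2.52 ± 0.17). Rsad2 (viperin), which makes a chain terminator of viral RNA, fell from 104, 102 and 103 CPM to 18.4, 19.7 and 21.4 CPM (log2 -2.37 ± 0.15). Mx2, a GTPase that traps viruses, fell from 13.7, 14.9 and 13 CPM to 1.33, 1.43 and 1.45 CPM (log2 -3.29 ± 0.13). The cytoplasmic RNA sensors fell less: Ddx58 (RIG-I) by 0.91 and Ifih1 (MDA5) by 1.60 on the log2 scale. Ifitm3, a membrane protein that blocks virus entry, and Isg20, an exonuclease, were spared at log2 -0.05 and 0.10. Oas1g was not called (log2 -1.07 ± 0.41, adjusted p = 0.0725).

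The interferon-inducible GTPases, which attack the vacuoles of intracellular microbes, were lower in 16 of 16 tested members, with a median log2 change of -2.22. These 16 were likewise all LPS-induced in the mutant. Irgm1, the most abundant, was at 296, 305 and 292 CPM with LPS and 80.4, 80.2 and 93.2 with both, below its vehicle mean of 93.4 CPM. Gbp4 fell from 2.88, 2.09 and 3.26 CPM to 0.356, 0.448 and 0.248 CPM (log2 -3.04 ± 0.41), from 0 reads in vehicle. Gbp10 had 21 reads in the LPS libraries and 0 in those with both, which makes it at least 11.1-fold lower against 3 reads over the group. Tgtp2 fell from 12.6, 10.5 and 12.3 CPM to 0.845, 1.39 and 1.61 CPM (log2 -3.12 ± 0.22). Tgtp1 is its near copy, as Ifit3b is of Ifit3. Reads that map to both copies were left out as multimapping, so levels within these pairs may be too low.

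The 10 largest falls among genes with at least 1 CPM and no overlap included Il12b, Ifit1 and 7 further interferon-inducible genes or GTPases named by the same rule: Ifit3b (log2 -3.64 ± 0.20), Ifit3 (-3.26 ± 0.16), Mx2, Tgtp2, Gbp4, Gm4841 (-3.38 ± 0.31) and F830016B08Rik (-3.54 ± 0.50). Gm4841, F830016B08Rik and BC023105 (-3.39 ± 0.28) lie near each other on chromosome 18. BC023105 stood at 3.56, 3.5 and 4.13 CPM with LPS and at 0.222, 0.269 and 0.461 CPM with both.

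The factors that drive these genes were mixed. Of 20 interferon regulatory and STAT factors 13 fell and 6 were spared, with a median log2 change of -0.34. With the 6 libraries fitted alone 7 fell and 8 were spared. Irf7, which amplifies interferon production, fell from 26.4, 24.5 and 25.7 CPM to 8.14, 5.87 and 6.18 CPM (log2 -1.94 ± 0.17). Stat2 (log2 -1.32 ± 0.09) and Irf9 (-1.10 ± 0.09), which act together at interferon response elements, both fell. Stat3 (0.00 ± 0.05), Stat6 (0.09 ± 0.04) and Irf3 (0.17 ± 0.11) were spared. Irf1 fell by 0.72 on the log2 scale and the interferon receptor genes Ifnar1 and Ifnar2 by 0.26 and 0.36.

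Antigen presentation by MHC class I was split. Of 19 genes 10 fell and 8 were spared, with a median log2 change of -0.24. The peptide transporter Tap1 (log2 -0.88 ± 0.11) and the immunoproteasome subunits Psmb8 (-1.04 ± 0.13) and Psmb9 (-1.38 ± 0.29) fell. The heavy chain genes H2-K1 (-0.06 ± 0.08) and H2-D1 (-0.15 ± 0.08) were spared. H2-K1 was at 54, 55.6 and 59.5 CPM with LPS and at 62.4, 50.3 and 49.5 with both, so the groups overlapped. Without replicate 1 of the group with both, and likewise without the 5 libraries, 3 members were spared, and 14 and 13 fell. With offsets for transcript length and GC content, 16 fell and 2 were spared, and with the 6 libraries fitted alone 5 fell and 10 were spared. The heavy chain genes are near copies, and reads that map to several of them were left out as multimapping. Without the 5 libraries Psmb9 was no longer called (log2 -0.69, adjusted p = 0.121).

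Of 20 genes of the TLR4 complex and its adaptors 6 fell, 2 rose and 12 were spared, with a median log2 change of -0.16. Over all tested genes 10.6% fell, 10.5% rose and 54% were spared, so the shares raised and spared were near those of all genes. With the 6 libraries fitted alone 3 fell and 14 were spared. Tlr4 itself (-0.03 ± 0.14), its partner Ly96 (-0.17 ± 0.14), Cd14 (-0.16 ± 0.10) and the adaptor Ticam1 (0.06 ± 0.06) were spared, and Myd88 fell by 0.19 on the log2 scale. Tlr2, the receptor of bacterial lipoproteins, was at 48.1, 41.2 and 49.1 CPM with LPS and at 48.8, 43.1 and 50.3 with both. Irak3, a kinase-like brake on Myd88 signalling, rose from 10.6, 9.13 and 9.68 CPM to 16.5, 17.2 and 19.2 CPM (log2 0.85 ± 0.10). Lbp, which hands LPS to the receptor, rose by a log2 of 0.84 ± 0.18. The largest fall was in Tlr3, the receptor of double-stranded RNA (-1.06 ± 0.20).

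Of 21 NF-kB subunits and feedback inhibitors 10 fell, 1 rose and 8 were spared, none of the falls reaching 2-fold (median log2 -0.27). With the 6 libraries fitted alone 6 fell and 11 were spared. Rela, the activating subunit, was spared at log2 -0.05 ± 0.08, and Nfkb1 fell by 0.45. Nfkbia, the inhibitor that glucocorticoids can induce, was at 195, 194 and 195 CPM with LPS and at 203, 181 and 151 with both (log2 -0.13 ± 0.09, 95% interval -0.31 to 0.05). Tnfaip3 (A20), an enzyme that shuts off the pathway, fell by 0.46. With the length and GC offsets 15 fell and 3 were spared, and small shifts of Nfkbia (-0.24) and Rela (-0.20) were then called.

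Among the 91 LPS-induced genes that were spared, those with the highest LPS level were Ifitm3, Icam1, Errfi1, Nfkbia, Igfbp3, Rnf19b, Flt1 and Rela, with mean LPS levels of 113 to 302 CPM. Igfbp3 went from a mean of 144 to 120 CPM (log2 -0.26 ± 0.11, adjusted p = 0.107), and its groups did not overlap. Icam1, an adhesion molecule that holds leukocytes, was at 211, 210 and 233 CPM with LPS and at 211, 189 and 177 with both, and 87.4% of its induction was retained. Its change (log2 -0.18 ± 0.07, interval -0.33 to -0.04) was called in DESeq2 (adjusted p = 0.0458) and without replicate 1 of the group with both (log2 -0.25, adjusted p = 0.0117). Of the other adhesion molecules Vcam1 (log2 -0.77 ± 0.06), Sele (-2.18 ± 0.13) and Selp (-0.98 ± 0.12) fell. Sod2, the mitochondrial superoxide dismutase, was at 101, 91.6 and 101 CPM with LPS and at 105, 94.8 and 97.1 with both. Zc3h12a (regnase), an RNase that destroys cytokine mRNAs, was at 75.6, 74 and 78.4 and at 80.1, 76.9 and 64.9 CPM. For Sod2 and Zc3h12a the libraries of the groups overlapped.

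Inflammatory enzymes fell in 8 of 14 tested cases and were spared in 5 (median log2 -0.56). Ptgs2 (cyclooxygenase 2), which makes prostaglandins, was at 1019, 1068 and 1013 CPM with LPS and at 253.5, 333.5 and 393.2 with both, and retained 0.652% of its induction over a vehicle mean of 322 CPM. Nos2, the inducible nitric oxide synthase, fell from 47.2, 41 and 51.9 CPM to 16.1, 15.3 and 13.9 CPM (log2 -1.64 ± 0.12). Acod1, which makes itaconate, fell by 0.42 on the log2 scale. Matrix proteases and their inhibitors fell in 12 of 21 cases and rose in 2 (median -0.44). Mmp9 fell from 45, 43.2 and 44.6 CPM to 11.6, 11.1 and 11.3 CPM (log2 -1.97 ± 0.08). Mmp13, a collagenase, varied in the LPS group, at 45.8, 26.3 and 22.1 CPM, and was at 6.45, 6 and 6.73 CPM with both (log2 -2.29 ± 0.47, adjusted p = 0.00131). The gelatinase Mmp2 (0.04 ± 0.04) and membrane protease Mmp14 (-0.06 ± 0.04) were spared.

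**Figure D3:**
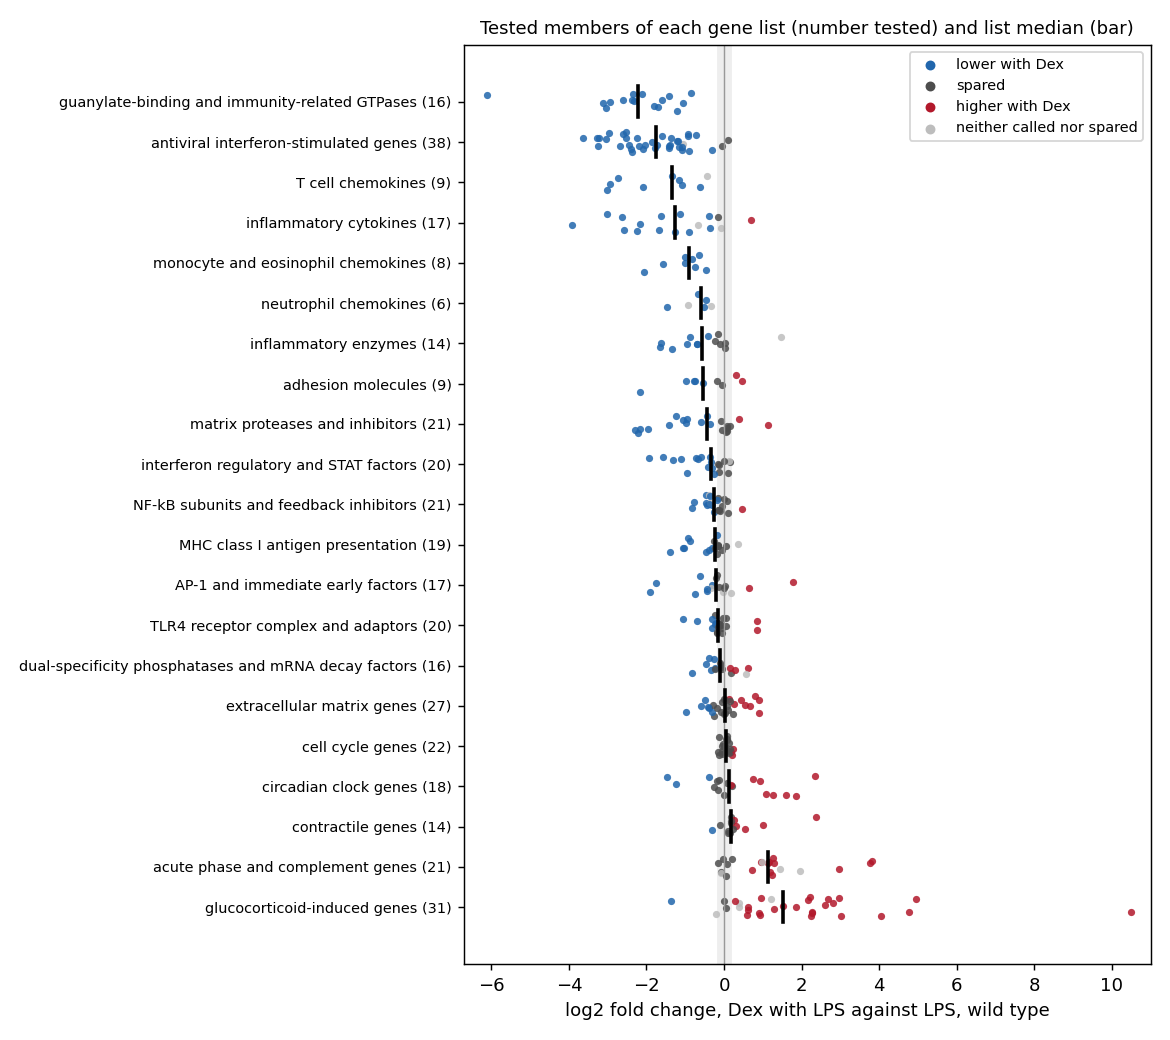
Log2 fold change of Dex with LPS against LPS in wild type for each tested member of 21 gene lists, coloured by class, with the number tested in brackets and the list median as a bar. The grey band spans the middle 50% of all tested genes and the thin line their median. List medians run from -2.22 for the interferon-inducible GTPases to 1.51 for glucocorticoid-induced genes. The outermost points, Gbp10 at -6.12 and Zbtb16 at 10.50, have 0 reads in a group, so their fitted values depend on the fit and are no measured fold.

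Most genes listed as glucocorticoid-induced rose under LPS. The list was written with earlier results of these data known, so its counts are a description. It includes Zbtb16, Sult1a1, Hif3a and Map7d2, which are also among the largest rises given below. Of 31 listed genes 24 rose, 17 of them at least 2-fold, 2 were spared and 1 fell, with a median log2 change of 1.51. Fkbp5, a chaperone that dampens the receptor, was at 34.9, 37.9 and 40.3 CPM with LPS and at 253, 243 and 235 with both (log2 2.69 ± 0.06). Tsc22d3 (GILZ), an inhibitor of NF-kB and AP-1, rose by a log2 of 2.26 ± 0.07, and the phosphatase Dusp1, which switches off MAP kinases, by 0.62 ± 0.07. Zbtb16, a zinc finger repressor, had 0 reads in the 3 LPS libraries and stood at 5.65, 6.99 and 8.31 CPM with both, at least 158-fold higher against 3 reads over the group. Angptl4, a lipase inhibitor, fell from 50.6, 52.3 and 54.4 CPM to 23.5, 19.7 and 18.3 CPM (log2 -1.36 ± 0.09).

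The largest rises among genes with at least 1 CPM and no overlap were Zbtb16, Lyve1 (log2 4.97 ± 0.38), Sult1a1 (4.96 ± 0.79), Hif3a (4.78 ± 0.44), Aldh1a7 (4.61 ± 0.38), Aldh1a1 (4.37 ± 0.40), Map7d2 (4.05 ± 0.19), Serpina3n, Serpina3m (3.75 ± 0.78) and Fhl5 (3.70 ± 0.55). Lyve1, a hyaluronan receptor, was at 0.137, 0.0854 and 0.0544 CPM with LPS and at 2.8, 2.73 and 3.63 with both. The retinal dehydrogenases Aldh1a1 and Aldh1a7 are near copies, and reads that map to both were left out as multimapping. Aldh1a1 was at 0.868, 0.768 and 0.381 CPM and then at 13.1, 13 and 16.6 CPM.

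Acute phase genes rose in 11 of 21 tested cases and were spared in 6, with a median log2 change of 1.13. Without replicate 3 of the group with both, 11 rose and 4 were spared, with a median of 0.73, and without the 5 libraries 10 rose and 3 were spared, with a median of 0.82. Of the 21, 11 were LPS-induced, and none of those was called lower. Lcn2, an iron-trapping antibacterial protein, had a vehicle mean of 0.071 CPM, stood at 4.48, 3.12 and 4.46 CPM with LPS and at 39.4, 26.6 and 27.8 with both (log2 2.96 ± 0.17). Saa3, an acute phase apolipoprotein, went from 24.5, 21.2 and 29.7 CPM to 71.9, 51.3 and 48.2 CPM (log2 1.18 ± 0.14), and Ptx3, a soluble pattern receptor, from 200, 202 and 216 CPM to 565, 467 and 481 CPM (log2 1.29 ± 0.07). Every library with both was above every LPS library in these 3 genes, as in 15.2% of all tested genes. Serpina3f, Serpina3g, Serpina3h, Serpina3i and Serpina3m rose as well. They are near copies of Serpina3n, and reads that map to several of them were left out as multimapping.

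Some acute phase genes are also made in liver, and liver marker RNA differed between the libraries as given above. The library with both agents that had the lowest liver sum, replicate 1, had the highest level of Lcn2, Saa3, Ptx3 and Serpina3n in its group. Hp, the haemoglobin scavenger haptoglobin, was at 3.52, 4.31 and 4.73 CPM with LPS and at 11.4, 8.24 and 10.0 CPM with both (log2 1.24 ± 0.40, adjusted p = 0.0314). In the authors' deposited table Hp was not called (adjusted p = 0.0814). The level of C3, the central complement protein, was not called (log2 0.97 ± 0.39, adjusted p = 0.0872). Of 17 liver markers tested 1 was called, Adh1, at 0.341 to 0.548 CPM with LPS and 0.712, 1.16 and 5.42 CPM with both, and the other 16 were neither called nor spared, with a list median log2 of 1.92. Without replicate 3 of the group with both the median was 0.24, and Adh1 was no longer called. The part of liver RNA in the acute phase results was not tested beyond these values.

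Of the 52 LPS-induced genes that rose, 26 did so by at least 2-fold. The metal-binding metallothioneins Mt1 and Mt2 were among them: Mt2 was at 113, 102 and 118 CPM with LPS and at 911, 684 and 452 with both (log2 2.62 ± 0.20). Zfp36 (tristetraprolin), which marks cytokine mRNAs for decay, rose from 59.4, 60.1 and 57 CPM to 77.1, 72.1 and 65.7 CPM (log2 0.28 ± 0.06, adjusted p = 0.00214). Further ones, named after their values were seen, were the bile acid transporter gene Slc10a6 (log2 3.59), the transcriptional repressor Prdm1 (1.83), transglutaminase Tgm2 (1.41) and syndecan Sdc4 (1.02).

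Of 22 cell cycle genes 20 were spared and 2 rose, Ccnd1 and Rrm2, by log2 0.19 and 0.23. Of 27 extracellular matrix genes 13 were spared, 6 fell and 8 rose, where 54% of all tested genes were spared, 10.6% fell and 10.5% rose. Postn, a matrix protein of wound fibroblasts, rose from 1547, 1554 and 1635 CPM to 2737, 2796 and 3339 CPM (log2 0.91 ± 0.07), and Lum, a small proteoglycan, fell by 0.98. Col1a1 was spared (0.10 ± 0.13). Of 18 clock genes 8 rose and 3 fell: Per2, a repressor of the clock, went from 3.7, 3.71 and 3.53 CPM to 17.6, 19.7 and 18.4 CPM, and Nr1d1 (REV-ERB alpha) from 33.4, 29.7 and 30.9 to 11.3, 12.1 and 10.6 CPM. Of 14 contractile genes 5 rose, led by Myocd (log2 2.37 ± 0.20), 1 fell and 8 were spared. Without replicate 3 of the group with both, 9 contractile genes rose, and without the 5 libraries 11. Of 17 AP-1 and immediate early factors 7 fell, among them Egr3 (-1.91 ± 0.22), and 2 rose, Fos (0.64 ± 0.10) and Batf3 (1.78 ± 0.39). Of 16 dual-specificity phosphatases and mRNA decay factors 6 fell and 3 rose. With the 6 libraries fitted alone 4 AP-1 and early factors fell, and 3 of the phosphatases and decay factors.

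Promoter motifs differed in share between the classes of LPS-induced genes, described here without a test. RefSeq windows matched 284 of the 400 genes that fell, 70 of the 91 spared and 39 of the 52 that rose, with 350, 93 and 50 windows. The interferon motif was in 25.7% of windows of genes that fell, 11.8% of the spared and 16% of those that rose, beside 7.25% of 14078 windows of tested genes. The kappa-B motif was in 7.14% (25 of 350 windows), 3.23% (3 of 93) and 8% (4 of 50), beside 1.41%, so the spared and raised shares rest on few windows. The AP-1 motif was in 16.9% (59 of 350), 8.6% (8 of 93) and 10% (5 of 50), beside 5.44%. The glucocorticoid motif was in 4.86%, 5.38% and 28% (14 of 50 windows), beside 4.36%. Over all 1591 genes that rose, LPS-induced or not, it was in 5.58% (92 of 1650 windows), near the share of tested genes. Of 33 windows of the antiviral genes, 60.6% held the interferon motif. Genes with several starts have several windows, which are not independent. Windows of near copies, such as the Serpina3 genes among those that rose, may not be independent either.

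Wild-type cells with Dex but no LPS gave a background for the response, from libraries that are in neither group compared under LPS but share in the estimate of the spread. Dex alone lowered 798 genes (5.24%) and raised 1205 (7.92%). Of the genes that Dex raised, 896 rose in both settings, which is 56.3% of those raised under LPS and 74.4% of those raised alone. Of those lowered, 540 fell in both, 33.6% and 67.7% of the 2 lists. Among the 52 LPS-induced genes that rose under LPS, 42 also rose with Dex alone. Among the 400 that fell, 87 fell with Dex alone and 14 rose.

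The difference between the Dex effect under LPS and the effect alone was called in 238 genes (1.56%), 190 of them more negative under LPS. Without the 5 libraries that stood apart it was called in 781. Of the 38 antiviral genes 25 were called in that direction, and their median log2 change with Dex alone was 0.06. For Ifit1 the difference was a log2 of -3.39 (adjusted p = 0.000511), and for Cxcl10 it was -2.52 (adjusted p = 0.000306). The glucocorticoid-induced list had 25 members that rose with Dex alone and 3 with a called difference. Errfi1, an inhibitor of the EGF receptor, rose with Dex alone (log2 0.92) and was spared under LPS at 205, 221 and 204 against 206, 222 and 229 CPM (difference -0.86, adjusted p = 1.33e-07). Nfkbia likewise rose alone (log2 0.67) and had a difference of -0.79 (adjusted p = 0.00139). Many inflammatory genes have few reads without LPS, so the difference could be estimated only loosely for them: for Il12b, with no read in either group without LPS, it could not be estimated. These differences share the LPS libraries with the main comparison.

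**Figure D4:**
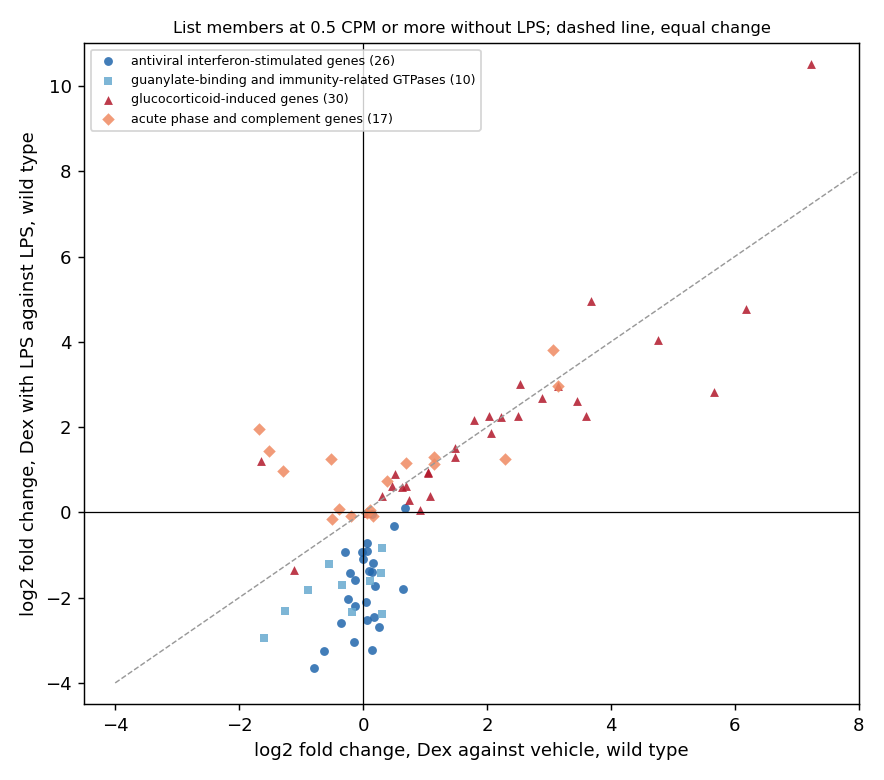
Log2 fold change with Dex alone (x axis) and with Dex under LPS (y axis) in wild type, for the members of 4 lists with at least 0.5 CPM in a group without LPS. Antiviral genes and GTPases lie below the dashed line of equal change, with Isg20 the uppermost antiviral gene at 0.10 under LPS. Most glucocorticoid-induced genes lie near the line, with Zbtb16 at the top.

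In the receptor mutant Dex called 1 gene under LPS (0.00657% of tested genes), at an adjusted p of 0.0427. Without adjustment, 889 genes had a p under 0.05. That gene, H2-T22, named for its value, was higher with Dex in the mutant (log2 0.36 ± 0.06) and lower in wild type (-0.19 ± 0.06). The genes that fell in wild type had a median log2 change of -0.42 there and -0.02 in the mutant, and those that rose 0.43 and 0.03. They were chosen by their calls in wild type, which can enlarge the wild-type medians, so these medians are a description. The difference of the Dex effect between genotypes was called in 1581 genes (10.4%), and in 2970 without the 5 libraries that stood apart. Of the 1607 genes that fell in wild type 789 fell more than in the mutant, and of the 1591 that rose 717 rose more. The genotype difference shares the wild-type libraries that chose these genes. For Serpina3n the mutant change was 0.26 ± 0.17 and the difference 3.56 (adjusted p = 1.8e-10). For Ifit1 the mutant change was 0.51 ± 0.15, not called, and the difference -3.74 (adjusted p = 1.93e-10). Of the antiviral genes 35 of 38 differed between genotypes, with a mutant median of 0.45. The effect of genotype and that of the embryos of each line cannot be told apart.

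**Figure D5:**
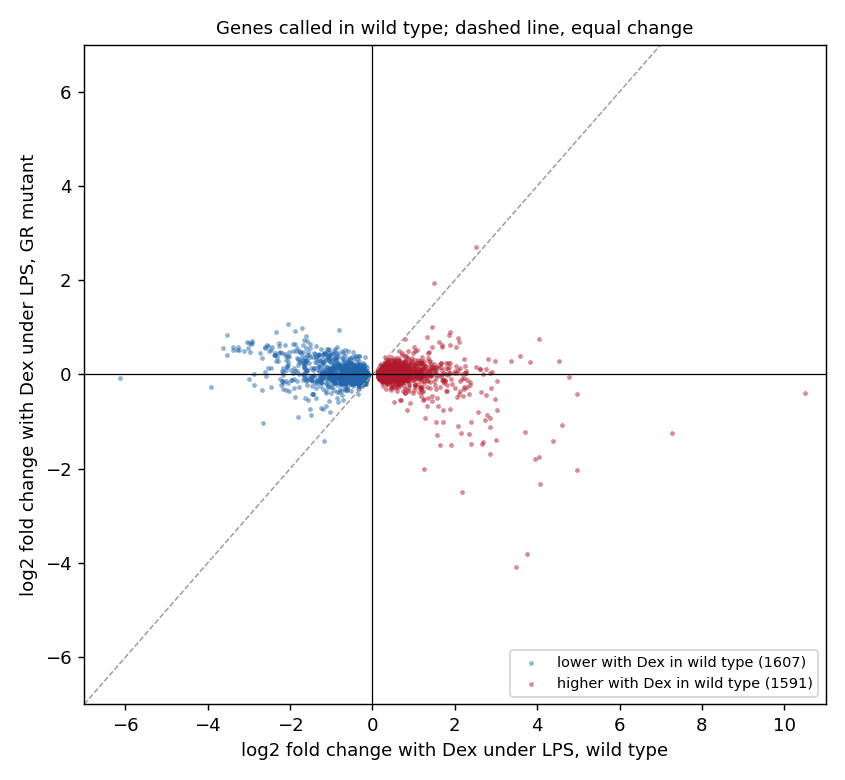
Log2 fold change with Dex under LPS in wild type (x axis) and in the GR mutant (y axis) for the 1607 genes that were lower and the 1591 that were higher in wild type. Both sets centre near zero on the mutant axis, with medians of -0.02 and 0.03 in the mutant. The genes were chosen by their calls in wild type, which can enlarge their values on the x axis. The dashed line marks equal change.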

How the data were processed

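RNA was measured by stranded polyA RNA-seq (TruSeq Stranded mRNA) in 24 libraries, 3 in each of 8 groups. The authors deposited STAR read counts per gene on mm10, made with STAR 2.4.2a or 2.4.2 per the submitters' processing notes. The column of reads on the strand opposite to the read was used as deposited. The authors' deposited table also gave log2 fold changes and adjusted p-values, from DESeq or DESeq2 per the submitters' processing notes. Another 96 columns of per-sample values by the authors were not used. Rows that name no gene were left out of totals; in the 6 libraries, multimapping reads were 3.92 to 5.79% and reads outside genes 3.10 to 4.26%. Symbols and positions came from GENCODE on GRCm38 and matched 45143 of 45706 identifiers.

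All 24 libraries were fitted together with edgeR 4.0.16 in R 4.3.3 (TMM scaling, filter on low counts, robust quasi-likelihood test), and p-values were adjusted over the 15221 genes tested by the Benjamini-Hochberg method, with calls at 0.05. Values are CPM on library totals scaled by TMM; errors are SD over 3 libraries or the SE of a log2 fold change. A floor of 3 reads was 0.0518 to 0.159 CPM of the unscaled totals, which covers counting error only. In counts simulated for this comparison over 14960 genes, 70.1% of genes changed 1.5-fold, 95.5% changed 2-fold and 98.5% changed 4-fold were called. The changed genes were above 1 CPM, and all groups were drawn with the same spread per gene. The wider spread of the real libraries with both agents was not simulated, so these shares may be too high for this comparison.

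The members and the 21 gene lists were chosen with earlier results of these data known. Named genes are the 4 markers, the 10 largest falls and 10 largest rises among called genes with a mean of at least 1 CPM and no overlap, per list the largest called fall and rise and the spared gene with the narrowest interval, and the 8 spared LPS-induced genes with the highest LPS level; further list members stand beside the count of their list. Alternatives were DESeq2 1.42.0, other scalings, no filter, unstranded counts, offsets for length and GC content, the 6 libraries alone, a replicate block, other thresholds and left-out libraries.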

Additional observations from a re-analysis of the deposited data

Results flagged for a closer look

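The Dex effect under LPS differed between wild type and the GR mutant in 1581 genes by the interaction term of the edgeR fit. For Ifit1 the wild-type effect minus the mutant effect was -3.74 on the log2 scale, for Cxcl10 -3.19, for Il12b -3.67 and for Serpina3n 3.56. In wild type, the effect under LPS differed from that of Dex alone in 238 genes. This difference was -3.39 for Ifit1, -2.52 for Cxcl10, -0.79 for Nfkbia, -0.86 for Errfi1 and -2.84 for Fam107a. Fam107a, an actin-associated stress gene, rose under both settings, by a log2 of 5.66 with Dex alone and 2.81 under LPS.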

How the results depend on the processing

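With the 6 compared libraries fitted alone, 723 genes fell and 821 rose. Leaving out 1 library at a time gave 1297 to 2189 genes that fell and 1110 to 2229 that rose, and among LPS-induced genes 355 to 388 that fell, 83 to 90 spared and 42 to 59 that rose. The genotype difference was then called in 1310 to 1860 genes and the difference from Dex alone in 168 to 279. Without the 5 libraries that stood apart these counts were 2970 and 781. A margin narrower than 1.5-fold left 39 LPS-induced genes spared and a margin of 2-fold 159. With LPS induction of at least 4-fold, 232 fell, 20 were spared and 19 rose, and with LPS induction defined in wild type 56 were spared. With the replicate block 1607 genes fell and 1541 rose, but same-numbered libraries did not deviate together. No named gene reversed direction under the alternatives run. Among named genes called in the comparison, Psmb9 lost its call without the 5 libraries.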
